A study of Mus musculus with 8 samples.

Results

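Kruppel-like factors are zinc finger transcription factors, and 9 of their mouse genes were followed here in macrophages that had been activated in different ways. The genes were Klf2, Klf3, Klf4, Klf6, Klf7, Klf9, Klf10, Klf11 and Klf13, a list taken from the family by name, with earlier results of these data known, and they were 9 of 19938 named genes on the array. Each was read from its only probe set with a single gene symbol. The cells were macrophages, phagocytes that had been grown from mouse bone marrow, and their RNA was hybridised to Affymetrix mouse gene arrays (MoGene 1.0 ST), 1 sample per array. The 4 groups of 2 arrays were cells left untreated, cells given IFN-gamma with LPS (lipopolysaccharide, a bacterial cell wall component), cells given IL-4 with IL-13, and cells given LPS with IL-4 and IL-13 (the combination), each for 6 h. The comparison of these groups asks which genes mark each activation state. The sources used here give no strain, age, sex or dose, and no group received LPS alone or IFN-gamma alone. They do not say whether both arrays of a group were separate cultures or animals, and the p-values therefore measure only the spread between these arrays, which may be technical.

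Kruppel-like factors share 3 C-terminal zinc fingers that bind GC-rich and CACCC sequences, and they differ in their N-terminal parts, which recruit other proteins. Klf2, Klf4, Klf6 and Klf7 belong to the branch that mostly activates transcription, Klf3 to a branch that represses through the corepressor CtBP, and Klf9, Klf10, Klf11 and Klf13 to a branch that binds the corepressor Sin3A. In macrophages Klf2 is known as a brake on inflammatory gene expression, Klf4 as an IL-4-inducible partner of STAT6 in alternative activation, and Klf6 as a promoter of inflammatory gene expression.

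Promoters are shown for Klf4, Klf6 and Klf7, whose group means lay farthest apart among the members with an entry in RefSeq's promoter table (assembly GRCm38.p6), and for Klf2, whose known regulator MEF2 was measured too. Each is the 250 bases before the gene start, 5′ to 3′ on the gene's strand, with the matches to any of 5 motifs in capitals. The kB motif was GGG and CC with any 5 bases between, a loose form of the NF-kB core that GC-rich strings also match. The STAT6 spacing was TTC and GAA with any 4 bases between. MEF2 was CTA and TAG with any 4 bases between. The KLF box was CCACCC, and CRE was TGACGTCA. Both strands were searched, and matches that overlap run together.
Klf4, chr4:55532476-55532725, minus strand: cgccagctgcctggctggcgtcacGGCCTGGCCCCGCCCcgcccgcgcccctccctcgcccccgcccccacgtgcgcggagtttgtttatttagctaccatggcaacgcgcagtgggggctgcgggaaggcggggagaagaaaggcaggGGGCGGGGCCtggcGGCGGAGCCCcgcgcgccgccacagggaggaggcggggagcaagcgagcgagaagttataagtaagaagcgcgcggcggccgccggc
Klf6, chr13:5861239-5861488, plus strand: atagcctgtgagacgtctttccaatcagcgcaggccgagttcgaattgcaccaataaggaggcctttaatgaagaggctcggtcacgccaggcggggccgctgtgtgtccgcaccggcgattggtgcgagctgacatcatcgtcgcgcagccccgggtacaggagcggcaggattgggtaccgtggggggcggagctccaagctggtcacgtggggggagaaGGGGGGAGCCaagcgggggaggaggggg
Klf7, chr1:64121390-64121639, minus strand: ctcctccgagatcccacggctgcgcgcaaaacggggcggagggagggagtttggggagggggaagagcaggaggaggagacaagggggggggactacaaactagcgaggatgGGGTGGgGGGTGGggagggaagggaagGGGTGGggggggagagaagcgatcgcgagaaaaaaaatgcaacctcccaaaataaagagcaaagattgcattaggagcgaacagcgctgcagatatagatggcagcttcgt
Klf2, chr8:72318812-72319061, plus strand: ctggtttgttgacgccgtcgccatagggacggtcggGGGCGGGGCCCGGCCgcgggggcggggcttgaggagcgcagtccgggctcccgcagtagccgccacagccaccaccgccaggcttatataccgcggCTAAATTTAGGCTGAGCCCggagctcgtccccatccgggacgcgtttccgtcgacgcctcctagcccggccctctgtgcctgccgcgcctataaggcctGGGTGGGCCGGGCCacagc
In these stretches Klf2 alone of the 8 members with an entry held a MEF2 match (CTAAATTTAG, from base -118 to -109), a motif found in 3.20% of 32851 promoters. The kB letters occurred in 6 of the 8, all but Klf7 and Klf9, and in 45.8% of promoters. KLF boxes occurred in Klf2, Klf3, Klf7 and Klf13, against 28.1% of promoters, with 3 each in Klf3 and Klf7. The STAT6 spacing (5.85% of promoters) and CRE (1.55%) were found in 0 of the 8. The members' stretches held between 59.2% and 78.4% G and C, and the median of all promoters was 52.4%. Some matches overlap, such as the MEF2 and a kB match in Klf2 and a KLF box and a kB match in Klf13. A match is a string of letters and does not show that a factor binds there.

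**Figure D1:**
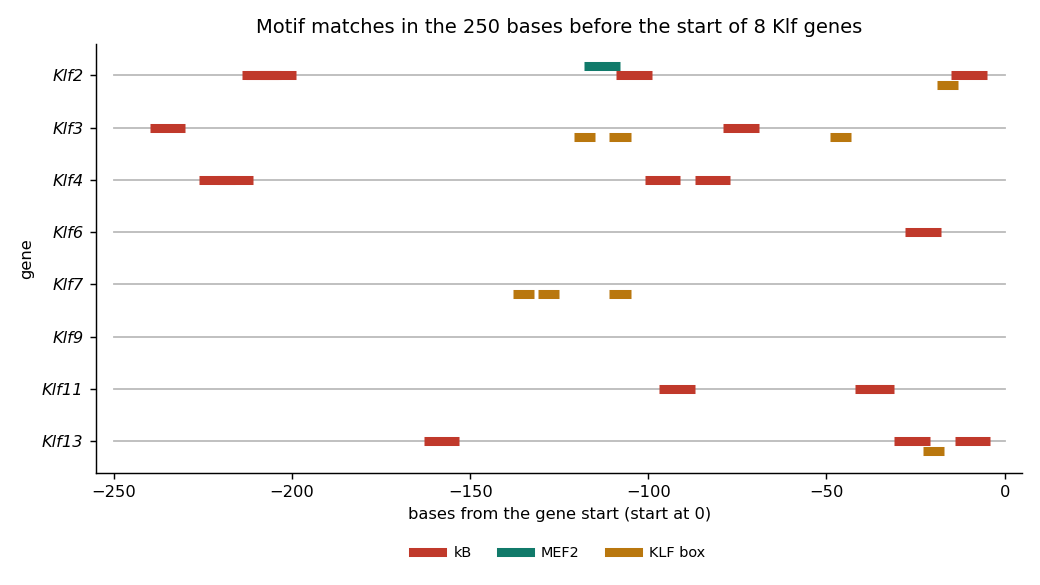
Positions of motif matches (coloured bars) on either strand in the 250 bases before the start of the 8 Klf genes with a promoter entry, in bases from the gene start. Klf4, Klf6 and Klf11 carry matches to kB alone, and Klf7 to the KLF box alone. Klf9 carries none of the 3 motifs drawn, and Klf2 is the only gene with a MEF2 match.

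Values are log2 signals as the authors deposited them, a change is the difference of 2 group means ± SE from limma (2 arrays in each group). The words rose and fell are used of an adjusted p under 0.05 (Benjamini-Hochberg, over all 19938 genes). Array medians lay between 6.12 and 6.20, and the 2 arrays of each group had a Pearson r, taken across genes (themselves no replicates), of 0.9939 to 0.9974. No array stood apart. Nos2 and Il6, genes of inflammatory activation, rose with both treatments that held LPS (log2 changes between 6.37 and 8.90). Arg1, a gene of alternative activation, rose by 3.45 ± 0.12 and 5.48 ± 0.12 with the treatments that held IL-4 and IL-13. It also rose slightly with IFN-gamma/LPS (0.34 ± 0.12, adjusted p = 0.0364). Retnla, another such gene, rose with IL-4/IL-13 (5.56 ± 0.19) but did not pass with LPS/IL-4/IL-13 (-0.19, adjusted p = 0.425). The macrophage markers Adgre1, Csf1r and Cd68 lay between 11.83 and 12.97 on all 8 arrays. Of 6 measured macrophage markers, 2 rose and 4 fell with IFN-gamma/LPS, 3 fell with IL-4/IL-13, and 1 rose and 4 fell with LPS/IL-4/IL-13, Csf1r changing by -1.09 and -0.83 with the LPS treatments, with mean levels of 11.83 to 11.86 in untreated cells and of 11.79 to 11.84, 11.44, and 11.71 to 11.75 in the treated groups. Marker lists of B, T and NK cells, fibroblasts and mast cells were called in at most 1 gene of each list in the comparisons with untreated cells. Dendritic cell markers had 4 of 6 higher with IFN-gamma/LPS, 1 of 6 with IL-4/IL-13 and 2 of 6 with LPS/IL-4/IL-13, their mean level being 5.61 to 5.75 on the untreated arrays and 6.72, 5.94 to 6.04 and 6.10 to 6.17 on the treated ones. Ccr7 (6.02 and 6.31 untreated, 9.08 and 9.12 with IFN-gamma/LPS) and Xcr1 (5.58 and 5.66, then 7.72 and 8.02) moved most there. Endothelial markers had 3 of 4 higher and 1 lower with IFN-gamma/LPS, 1 of 4 higher with IL-4/IL-13 and 2 of 4 higher with LPS/IL-4/IL-13, with means of 5.79 to 5.82 in untreated cells and of 6.85 to 6.88, 6.38 to 6.52 and 6.48 to 6.53 in the treated groups. Neutrophil markers had 2 of 7 lower with IFN-gamma/LPS, and 2 higher and 1 lower of 7 with LPS/IL-4/IL-13, with means of 6.49 to 6.51 in untreated cells and of 6.30 to 6.40 and 6.54 to 6.56 in those groups. Both measured erythroid markers were higher with IFN-gamma/LPS and with LPS/IL-4/IL-13. Their means stayed below the array medians, at 5.40 to 5.45 in untreated cells and at 5.82 to 5.88 and 5.72 to 5.92 in those groups. Beside these marker counts, 51.9% of all genes were called with IFN-gamma/LPS, 20.2% with IL-4/IL-13 and 45.6% with LPS/IL-4/IL-13. The part of such cells in the Klf results was not tested, the arrays came without detection calls, and in bulk RNA fewer cells of a type cannot be told apart from less RNA per cell.

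All 9 Klf genes changed in at least 1 of the comparisons with untreated cells, where 60.5% of all genes did, and 5 changed in all 3 comparisons (Klf6, Klf7, Klf9, Klf10 and Klf11), where 14.4% of all genes did. The 9 were chosen with earlier results known and read 6.81 or more on every array, whereas these shares also cover dim genes. Of 16 other measured KLF and SP genes, 0 were called with IL-4/IL-13. With IFN-gamma/LPS, 2 members rose (Klf6 and Klf7) and 5 fell (Klf3, Klf9, Klf10, Klf11 and Klf13). Of all genes 51.9% changed, 23.6% rising and 28.4% falling, the members' median change was -0.42, and that of all genes was 0.11. With IL-4/IL-13, 3 rose (Klf4, Klf7 and Klf9) and 3 fell (Klf6, Klf10 and Klf11), against 7.83% and 12.3% of all genes (20.2% together), with a median of -0.04 against 0.07. With LPS/IL-4/IL-13, 3 rose (Klf4, Klf6 and Klf7) and 5 fell (Klf2, Klf9, Klf10, Klf11 and Klf13), against 20.3% and 25.4% of all genes (45.6% together), with a median of -0.47 against 0.09. Klf10 and Klf11 fell in all 3 treatments and Klf7 rose in all 3, whereas Klf6 and Klf9 moved in opposite directions with IFN-gamma/LPS and with IL-4/IL-13. The 3 comparisons share the untreated arrays. A called change of at least 1 log2 unit was seen in 2 members with IFN-gamma/LPS (Klf6 and Klf10), 1 with IL-4/IL-13 (Klf4) and 4 with the combination (Klf6, Klf7, Klf10 and Klf11), against 17.0%, 2.44% and 13.9% of all genes. The treated and untreated arrays did not overlap for 8, 9 and 8 members in that order, the exceptions being Klf4 with IFN-gamma/LPS and Klf3 with the combination, and for 78.9%, 65.0% and 73.7% of all genes.

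**Figure D2:**
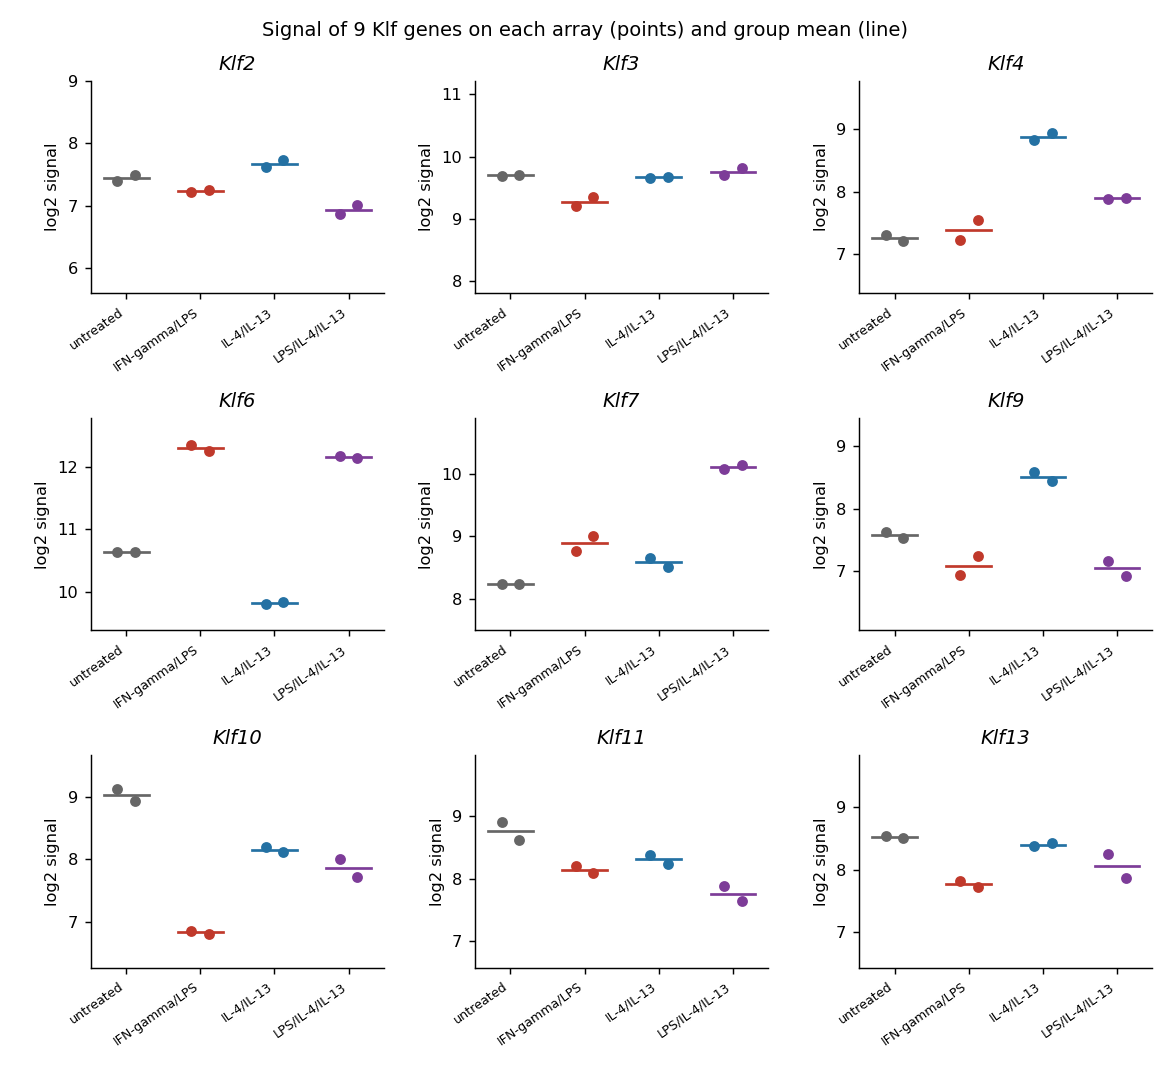
Log2 signal of each Klf gene on the 8 arrays (points, 2 per group) with the group mean (line); every panel spans the same number of log2 units. Klf4 and Klf9 are highest with IL-4/IL-13, Klf6 is highest in both groups given LPS, Klf7 stands highest with LPS/IL-4/IL-13, and Klf10 is lowest with IFN-gamma/LPS.

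Klf4, the IL-4-inducible factor, rose 3.07-fold with IL-4/IL-13. Its log2 signal was 7.30 and 7.21 on the untreated arrays, 7.22 and 7.55 with IFN-gamma/LPS, 8.82 and 8.93 with IL-4/IL-13, and 7.88 and 7.90 with LPS/IL-4/IL-13. Both IL-4/IL-13 arrays lay above all others, both LPS/IL-4/IL-13 arrays came next, and the IFN-gamma/LPS arrays overlapped the untreated ones. The change against untreated cells was 1.62 ± 0.12 with IL-4/IL-13 (adjusted p = 1.39e-06) and 0.64 ± 0.12 with LPS/IL-4/IL-13 (adjusted p = 0.00067). With LPS in the mixture the level was 1.98-fold lower than with IL-4/IL-13 alone (-0.99 ± 0.12, adjusted p = 2.06e-05). With IFN-gamma/LPS the change of 0.13 did not pass (95% interval -0.12 to 0.38, adjusted p = 0.365). After quantile normalization it was 0.36 with an adjusted p of 0.0218. Klf4 was higher with LPS/IL-4/IL-13 than with IFN-gamma/LPS (0.51 ± 0.12, adjusted p = 0.00818), a call lost without IFN-gamma/LPS array 1 (0.34, adjusted p = 0.104) and when both other groups were kept out of the fit (adjusted p = 0.0553).

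Klf2, the factor tied to quiescence, changed less. Its values were 7.40 and 7.49 in untreated cells, 7.23 and 7.25 with IFN-gamma/LPS, 7.62 and 7.73 with IL-4/IL-13, and 6.87 and 7.01 with LPS/IL-4/IL-13. The arrays of the 4 groups did not overlap, yet no step between neighbouring groups passed the test (adjusted p of 0.135, 0.11 and 0.06 from the highest group to the lowest). Klf2 fell 1.42-fold with LPS/IL-4/IL-13 against untreated cells (-0.51 ± 0.10, adjusted p = 0.00133). It was lower there than with IL-4/IL-13 (-0.74 ± 0.10, adjusted p = 7.76e-05), and lower with IFN-gamma/LPS than with IL-4/IL-13 (-0.44 ± 0.10, adjusted p = 0.00357). Quantile normalization ended the last call (-0.27, adjusted p = 0.0538) and brought the fall with LPS/IL-4/IL-13 to -0.31. The changes against untreated cells of -0.21 with IFN-gamma/LPS (95% interval -0.43 to 0.02) and 0.23 with IL-4/IL-13 (0.01 to 0.45) did not pass, and the first of them was 0.03 after quantile normalization. The difference between the combination and IFN-gamma/LPS (-0.30, adjusted p = 0.06) passed without LPS/IL-4/IL-13 array 2 (-0.37, adjusted p = 0.0363), with dim genes left out, after quantile normalization and with the replicate number as a block (adjusted p = 0.0493).

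Klf6, a factor that acts with NF-kB in inflammatory macrophages, rose with both LPS treatments and fell with IL-4/IL-13. The log2 signal was 10.64 and 10.63 in untreated cells, 12.35 and 12.26 with IFN-gamma/LPS, 9.81 and 9.84 with IL-4/IL-13, and 12.17 and 12.14 with LPS/IL-4/IL-13. The replicates lay within 0.1 of each other while the group means spanned 2.48. Against untreated cells the increase was 3.18-fold with IFN-gamma/LPS (1.67 ± 0.06, adjusted p = 4.69e-10) and 2.87-fold with LPS/IL-4/IL-13 (1.52 ± 0.06, adjusted p = 1.33e-09), and the fall with IL-4/IL-13 was 1.75-fold (-0.81 ± 0.06, adjusted p = 2.43e-06). With LPS added to IL-4 and IL-13 the level was 5.03-fold above that with IL-4/IL-13 (2.33 ± 0.06, adjusted p = 4.43e-11). The difference between both LPS groups was -0.15 (95% interval -0.29 to -0.01, adjusted p = 0.134) and did not pass, although their arrays did not overlap. Every call of Klf6 was kept under all 18 alternatives.

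Klf7, studied mostly in neurons and fat cells, was highest when LPS was combined with IL-4 and IL-13. Its values were 8.24 and 8.24 in untreated cells, 8.77 and 9.01 with IFN-gamma/LPS, 8.65 and 8.51 with IL-4/IL-13, and 10.07 and 10.14 with LPS/IL-4/IL-13. Both LPS/IL-4/IL-13 arrays lay more than 1 log2 unit above all others, and the groups did not overlap. Against untreated cells Klf7 rose 3.64-fold with LPS/IL-4/IL-13 (1.87 ± 0.10, adjusted p = 1.37e-08), 1.57-fold with IFN-gamma/LPS (0.65 ± 0.10, adjusted p = 0.00014) and 1.27-fold with IL-4/IL-13 (0.34 ± 0.10, adjusted p = 0.0326). The LPS/IL-4/IL-13 level was 2.32-fold above that with IFN-gamma/LPS (1.22 ± 0.10, adjusted p = 2.95e-06) and 2.88-fold above that with IL-4/IL-13 (1.53 ± 0.10, adjusted p = 1.04e-07). The rise with IL-4/IL-13 was lost without untreated array 1 (adjusted p = 0.17), untreated array 2 (0.34, adjusted p = 0.138), IL-4/IL-13 array 1 (0.27, adjusted p = 0.18) or IL-4/IL-13 array 2 (0.41, adjusted p = 0.0674), after median centring (0.31, adjusted p = 0.0811), without a variance trend (adjusted p = 0.0577) and when all probe sets were tested (adjusted p = 0.0784). The difference of 0.31 between IFN-gamma/LPS and IL-4/IL-13 (adjusted p = 0.0248) was lost without IFN-gamma/LPS array 2 (0.19, adjusted p = 0.243), without IL-4/IL-13 array 2 (0.24, adjusted p = 0.172) and when all probe sets were tested (adjusted p = 0.0508).

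Klf3, the CtBP-binding repressor, moved in a single group. It read 9.69 and 9.71 in untreated cells, 9.21 and 9.35 with IFN-gamma/LPS, 9.66 and 9.67 with IL-4/IL-13, and 9.70 and 9.81 with LPS/IL-4/IL-13. Both IFN-gamma/LPS arrays were the lowest, and the other 3 groups lay within 0.15 of each other. The level with IFN-gamma/LPS was 1.34-fold below that of untreated cells (-0.42 ± 0.08, adjusted p = 0.00104), below that with IL-4/IL-13 (-0.39 ± 0.08, adjusted p = 0.00211) and 1.39-fold below that with LPS/IL-4/IL-13, the latter being higher by 0.48 ± 0.08 (adjusted p = 0.00132). Against untreated cells, the intervals for IL-4/IL-13 (-0.22 to 0.15) and LPS/IL-4/IL-13 (-0.13 to 0.24) both held 0.

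Klf10, the TGF-beta-inducible early gene, fell most of the 9 and was lower in every treated group. It read 9.12 and 8.94 in untreated cells, 6.85 and 6.81 with IFN-gamma/LPS, 8.19 and 8.12 with IL-4/IL-13, and 8.01 and 7.71 with LPS/IL-4/IL-13. The 4 groups did not overlap, and IFN-gamma/LPS stood lowest. The falls against untreated cells were 4.60-fold with IFN-gamma/LPS (-2.20 ± 0.12, adjusted p = 9.23e-09), 2.25-fold with LPS/IL-4/IL-13 (-1.17 ± 0.12, adjusted p = 3.58e-06) and 1.83-fold with IL-4/IL-13 (-0.88 ± 0.12, adjusted p = 0.00019). Klf10 was 2.04-fold higher with LPS/IL-4/IL-13 than with IFN-gamma/LPS (1.03 ± 0.12, adjusted p = 4.25e-05). Against IL-4/IL-13 it differed by -0.30 in the LPS/IL-4/IL-13 group and did not pass (95% interval -0.55 to -0.04, adjusted p = 0.0677). That difference passed without LPS/IL-4/IL-13 array 1 (-0.45, adjusted p = 0.0074), with dim genes left out (adjusted p = 0.04) and with the replicate block (adjusted p = 0.0404), and was -0.15 without LPS/IL-4/IL-13 array 2.

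Klf11, the closest relative of Klf10, fell by smaller amounts and in another order. It read 8.91 and 8.63 in untreated cells, 8.21 and 8.09 with IFN-gamma/LPS, 8.39 and 8.24 with IL-4/IL-13, and 7.88 and 7.65 with LPS/IL-4/IL-13. Here LPS/IL-4/IL-13 stood lowest, whereas for Klf10 it was IFN-gamma/LPS. The falls against untreated cells were 2.01-fold with LPS/IL-4/IL-13 (-1.01 ± 0.12, adjusted p = 2.1e-05), 1.54-fold with IFN-gamma/LPS (-0.62 ± 0.12, adjusted p = 0.000946) and 1.37-fold with IL-4/IL-13 (-0.46 ± 0.12, adjusted p = 0.0203). The LPS/IL-4/IL-13 level was below that with IL-4/IL-13 (-0.55 ± 0.12, adjusted p = 0.00287). After quantile normalization the change with IFN-gamma/LPS was -0.40. The fall with IL-4/IL-13 was lost without untreated array 1 (-0.32, adjusted p = 0.242), without IL-4/IL-13 array 2 (-0.38, adjusted p = 0.168) and when all probe sets were tested (adjusted p = 0.0691). The combination against IFN-gamma/LPS barely passed (-0.39 ± 0.12, adjusted p = 0.0438) and was lost in 10 of 18 alternatives, among them leaving out IFN-gamma/LPS array 1 (-0.33, adjusted p = 0.221), IFN-gamma/LPS array 2 (-0.45, adjusted p = 0.0668) or LPS/IL-4/IL-13 array 2 (-0.27, adjusted p = 0.189), untreated array 1 (adjusted p = 0.0502), IL-4/IL-13 array 1 (adjusted p = 0.0649) or IL-4/IL-13 array 2 (adjusted p = 0.0652). IFN-gamma/LPS and IL-4/IL-13 differed by -0.17 (95% interval -0.43 to 0.10), which did not pass.

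Klf9, a factor induced by glucocorticoids and thyroid hormone, rose with IL-4/IL-13 and fell with both LPS treatments. Its values were 7.62 and 7.53 in untreated cells, 6.93 and 7.24 with IFN-gamma/LPS, 8.58 and 8.44 with IL-4/IL-13, and 7.17 and 6.92 with LPS/IL-4/IL-13. Both IL-4/IL-13 arrays lay above all others, and the arrays of both LPS groups overlapped. Against untreated cells the rise was 1.91-fold (0.94 ± 0.13, adjusted p = 0.000244), and the falls were 1.40-fold with IFN-gamma/LPS (-0.49 ± 0.13, adjusted p = 0.00672) and 1.44-fold with LPS/IL-4/IL-13 (-0.53 ± 0.13, adjusted p = 0.00469). With LPS in the mixture Klf9 was 2.76-fold lower than with IL-4/IL-13 (-1.47 ± 0.13, adjusted p = 1.43e-06). The 2 groups with LPS differed by -0.04 (95% interval -0.32 to 0.24). Quantile normalization ended both falls against untreated cells (-0.26 and -0.32, adjusted p = 0.103 and 0.0517), and the one with IFN-gamma/LPS was also lost without untreated array 1 (-0.45, adjusted p = 0.0616) and without IFN-gamma/LPS array 1 (-0.34, adjusted p = 0.075).

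Klf13, first described in T cells as a factor that binds the Ccl5 promoter, was highest in untreated cells. It read 8.54 and 8.50 there, 7.81 and 7.72 with IFN-gamma/LPS, 8.37 and 8.43 with IL-4/IL-13, and 8.25 and 7.86 with LPS/IL-4/IL-13. Both IFN-gamma/LPS arrays were the lowest, and the LPS/IL-4/IL-13 arrays lay 0.39 apart. The falls against untreated cells were 1.69-fold with IFN-gamma/LPS (-0.76 ± 0.12, adjusted p = 2e-04) and 1.38-fold with LPS/IL-4/IL-13 (-0.47 ± 0.12, adjusted p = 0.00752). With IL-4/IL-13 the change of -0.12 did not pass (95% interval -0.39 to 0.15). The fall with LPS/IL-4/IL-13 was lost without LPS/IL-4/IL-13 array 2 (-0.27, adjusted p = 0.0516) and without untreated array 1 (-0.45, adjusted p = 0.0598), and was -0.30 after quantile normalization. LPS/IL-4/IL-13 lay below IL-4/IL-13 (-0.35 ± 0.12, adjusted p = 0.042), a call lost in 10 of 18 alternatives, among them leaving out either untreated array (adjusted p = 0.0727 and 0.0726), IL-4/IL-13 array 1 (-0.38, adjusted p = 0.112), IL-4/IL-13 array 2 (-0.32, adjusted p = 0.18) or LPS/IL-4/IL-13 array 2 (-0.15, adjusted p = 0.311), and it was -0.54 without LPS/IL-4/IL-13 array 1. Its difference of 0.29 between LPS/IL-4/IL-13 and IFN-gamma/LPS (adjusted p = 0.135) passed without LPS/IL-4/IL-13 array 2 (0.49, adjusted p = 0.00412).

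**Figure D3:**
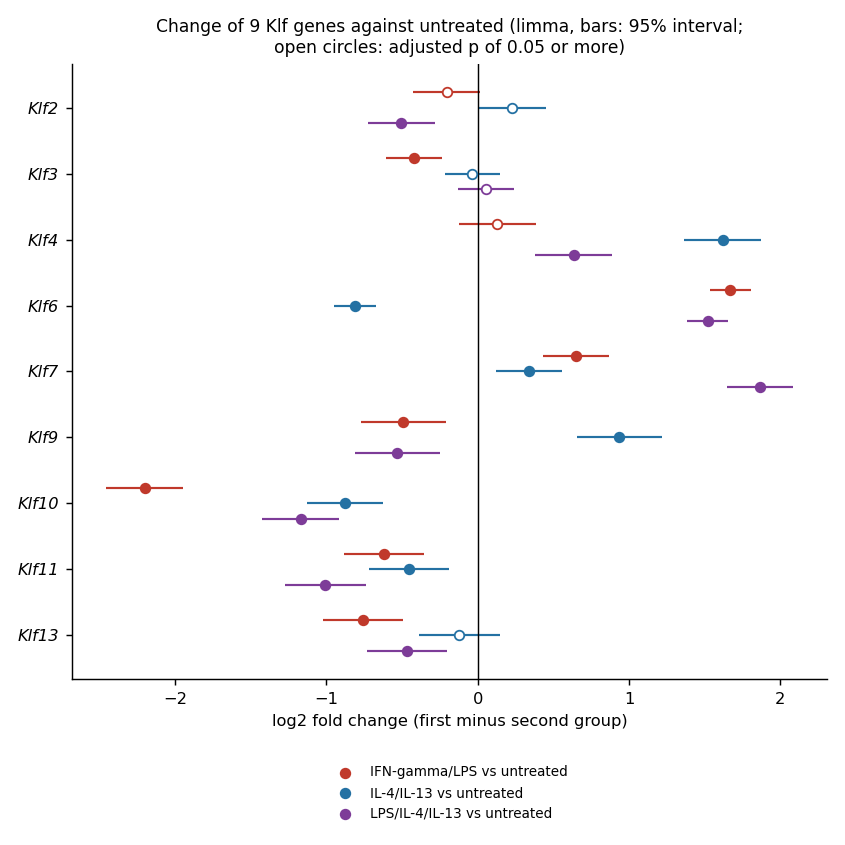
Log2 fold change of each Klf gene against untreated cells for the 3 treatments (colours), with 95% intervals from limma; filled circles passed an adjusted p of 0.05 and open circles did not. Klf2, Klf3, Klf6 and Klf9 have points on both sides of 0, with filled circles on both sides for Klf6 and Klf9 alone. Klf7 lies right of 0 throughout, and Klf10 and Klf11 lie left of it.

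Between the treatments, the combination differed from IFN-gamma/LPS in 5 members, with Klf3, Klf4, Klf7 and Klf10 higher and Klf11 lower, against 12.1% of all genes higher and 7.62% lower (19.7% together). Its 2 largest differences were those of Klf7 (1.22) and Klf10 (1.03), and the count was 3 without IFN-gamma/LPS array 1, with Klf4 and Klf11 lost. Against IL-4/IL-13 the combination had 2 members higher (Klf6 and Klf7) and 5 lower (Klf2, Klf4, Klf9, Klf11 and Klf13), where 14.1% of all genes were higher and 22.6% lower (36.7% together). IFN-gamma/LPS had 2 members above IL-4/IL-13 (Klf6 by 2.48 ± 0.06 and Klf7) and 6 below, where 15.5% and 26.1% of all genes were so (41.6% together). Those below were Klf9 (-1.43 ± 0.13), Klf4 (-1.49 ± 0.12), Klf10 (-1.33 ± 0.12), Klf13 (-0.64 ± 0.12), Klf2 and Klf3. By group means, the combination lay between IFN-gamma/LPS and IL-4/IL-13 for Klf4, Klf6, Klf10 and Klf13, above both for Klf3 and Klf7, and below both for Klf2, Klf9 and Klf11. Both differences passed and went the same way for Klf7 and, with the lost calls given above, for Klf11.

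**Figure D4:**
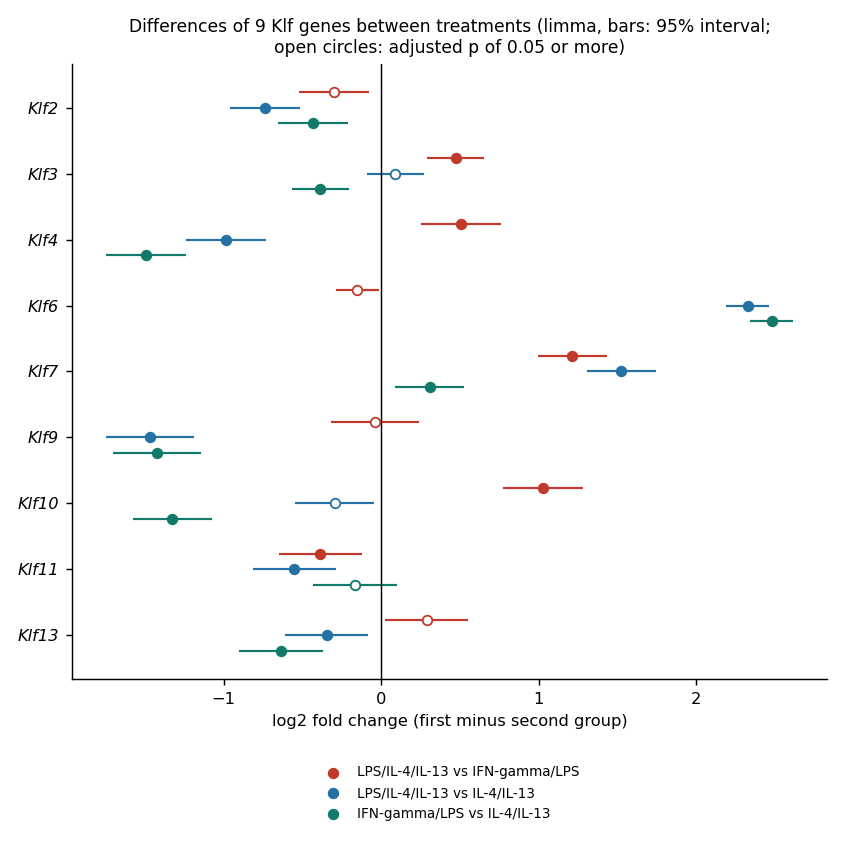
Log2 differences of each Klf gene between treatments (colours name the 2 groups compared), with 95% intervals from limma; open circles did not pass an adjusted p of 0.05. Klf7 is the only member with both comparisons of LPS/IL-4/IL-13 at more than 1 log2 unit on the same side of 0.

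The members differed widely in how their levels ran over the 8 arrays. As a measure of likeness, each gene was centred on its own mean and the root mean square distance between 2 genes was taken over the 8 arrays. Klf3 and Klf13 were the closest members (0.25 log2 units), and Klf6 and Klf10 the farthest apart (1.68). For the 5 members that changed by at least 1 log2 unit against untreated cells, the 3 nearest genes were sought among all other named genes. Those nearest to Klf4 were Slc39a6 (0.18), Chst7 (0.20) and Ccdc141 (0.20), and those nearest to Klf6 were Tnip1 (0.10), Carhsp1 (0.11) and Stk40 (0.11). Slc39a6, a zinc transporter gene, changed by 1.46 with IL-4/IL-13 and by 0.24 with LPS/IL-4/IL-13 against untreated cells, where Klf4 changed by 1.62 and 0.64. Nearest to Klf7 were Pcdh7 (0.086), Pop4 (0.087) and Urah (0.13), to Klf10 Eri2 (0.13), Cdc14b (0.14) and Itgb5 (0.15), and to Klf11 Hint3 (0.048), Sdf4 (0.071) and Zmym5 (0.075). Pcdh7, a protocadherin gene, changed by 0.60, 0.34 and 1.94 with IFN-gamma/LPS, with IL-4/IL-13 and with the combination, next to 0.65, 0.34 and 1.87 for Klf7. These are descriptions of 8 arrays in 4 groups and carry no test.

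Of 16 other measured KLF and SP genes, which bind similar sequences, 7 rose and 2 fell with IFN-gamma/LPS, where 51.9% of all genes changed. With IL-4/IL-13, 0 were called in limma, against 20.2% of all genes. With LPS/IL-4/IL-13, 3 rose and 2 fell, against 45.6% of all genes changed. Klf8, a CtBP-binding relative of Klf3, rose most. It read 6.30 and 6.40 in untreated cells, 8.94 and 9.17 with IFN-gamma/LPS, 6.36 and 6.31 with IL-4/IL-13, and 7.95 and 7.96 with LPS/IL-4/IL-13. Its change was 2.71 ± 0.11 with IFN-gamma/LPS (adjusted p = 6.83e-10), larger than that of any of the 9 members in the same comparison, and 1.61 ± 0.11 with LPS/IL-4/IL-13 (adjusted p = 9.2e-08), and the latter group was 1.10 lower than the former (adjusted p = 1.19e-05). Klf5 (0.62 ± 0.14), Sp6 (0.52 ± 0.12) and Sp9 (0.49 ± 0.11) rose by less with IFN-gamma/LPS. Several of the genes called higher there were dim. In untreated cells Sp6 read 4.75 and 4.78, Klf17 4.07 and 4.44, Klf15 5.66 and 5.83, and Sp9 5.92 and 6.07. These values lie below the array medians, and without detection calls they do not show whether the genes were expressed. The ubiquitous activators Sp1 (-0.83 ± 0.11) and Sp3 (-1.21 ± 0.10) fell with IFN-gamma/LPS and less with LPS/IL-4/IL-13 (-0.36 ± 0.11 and -0.47 ± 0.10). Another Sp3 probe set, not used for the gene, stayed between 7.27 and 7.44 on all arrays, so the 2 probe sets disagreed. Klf1, Klf12 and Klf16 did not pass in any comparison with untreated cells, their changes lying between -0.05 and 0.31. With IL-4/IL-13, 2 of the 16 had an unadjusted p under 0.05 in limma.

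Genes that act upstream of Klf2 and Klf4 in endothelium and lymphocytes were mostly lower in treated cells. The kinases MEK5 and ERK5 (Map2k5, Mapk7), the MEF2 factors they activate and the FOXO factors gave 7 of 7 lower with IFN-gamma/LPS, 5 of 7 with IL-4/IL-13 and 7 of 7 with LPS/IL-4/IL-13, with medians of -1.27, -0.54 and -1.26. Of all genes 28.4%, 12.3% and 25.4% fell. With IL-4/IL-13, Map2k5 (-0.24, adjusted p = 0.178) and Foxo1 (-0.07, adjusted p = 0.732) did not pass. Mef2c read 10.45 and 10.50 in untreated cells, 7.62 and 7.83 with IFN-gamma/LPS, 9.41 and 9.27 with IL-4/IL-13, and 7.28 and 7.40 with LPS/IL-4/IL-13, and its change in the last group was -3.14 ± 0.10 (adjusted p = 1.64e-10). Foxo3 fell with both LPS treatments (-2.35 ± 0.13 and -2.34 ± 0.13), as did Mef2d (-1.41 ± 0.10 and -1.30 ± 0.10), Foxo1 (-1.27 ± 0.13 and -1.26 ± 0.13), Mef2a (-0.49 ± 0.07 and -1.06 ± 0.07) and Map2k5 (-0.83 ± 0.12 and -0.79 ± 0.12). Beside these, Klf2 was at -0.21 with IFN-gamma/LPS and 0.23 with IL-4/IL-13, neither passing, and fell with the combination (-0.51). Klf4 was at 0.13 with IFN-gamma/LPS, not passing, and rose with IL-4/IL-13 (1.62) and with the combination (0.64).

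Cofactors of the family were called in both directions. Of 10 corepressors and coactivators, 2 rose and 5 fell with IFN-gamma/LPS, 2 fell with IL-4/IL-13, and 3 rose and 4 fell with LPS/IL-4/IL-13. Of all genes, 51.9%, 20.2% and 45.6% changed in that order of treatments. The histone deacetylase gene Hdac1 rose with both LPS treatments (1.37 ± 0.11 and 1.32 ± 0.11) and the acetyltransferase gene Kat2b likewise (0.77 ± 0.12 and 0.99 ± 0.12). Hdac3 (-1.10 ± 0.09 and -0.43 ± 0.09), Sin3a (-0.89 ± 0.10 and -0.66 ± 0.10) and Ctbp2 (-0.77 ± 0.09 and -0.55 ± 0.09) fell with both, and Hdac2 fell with IFN-gamma/LPS (-0.77 ± 0.16). Ep300 and Crebbp, coactivators shared with many factors, did not pass in any comparison with untreated cells. Among 4 ubiquitin ligases that act on KLF proteins, Wwp1 fell with every treatment, the changes being -2.91 ± 0.09 with IFN-gamma/LPS, -0.87 ± 0.09 with IL-4/IL-13 and -2.80 ± 0.09 with LPS/IL-4/IL-13. Its log2 signal was 12.69 and 12.69 in untreated cells and 9.73 to 10.03 on the 4 arrays of the LPS groups. Smurf1 rose with LPS/IL-4/IL-13 (0.45 ± 0.10), Btrc fell with IFN-gamma/LPS (-0.39 ± 0.10), and Fbxw7 fell with IL-4/IL-13 (-0.38 ± 0.10). Another Fbxw7 probe set, not used for the gene, read 3.39 and 3.48 in untreated cells and 3.33 and 3.48 with IL-4/IL-13. Its signal lay far below the array medians, so it cannot show whether that fall holds.

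Of 12 measured genes described as KLF targets in macrophages or other cells, 4 rose and 5 fell with IFN-gamma/LPS. With IL-4/IL-13, 4 rose and 3 fell, and with LPS/IL-4/IL-13, 6 rose and 4 fell. In the same order 51.9%, 20.2% and 45.6% of all genes changed. S1pr1, the lymphocyte egress receptor that Klf2 activates in T cells, read 9.94 and 10.02 in untreated cells, 6.86 and 6.94 with IFN-gamma/LPS, 8.69 and 8.35 with IL-4/IL-13, and 6.47 and 6.56 with LPS/IL-4/IL-13, and fell in all 3 comparisons (-3.08 ± 0.12, -1.46 ± 0.12 and -3.47 ± 0.12). Zc3h12a, an RNase gene described as a Klf4 target, rose in all 3, by 1.02 ± 0.09 with IL-4/IL-13 and by 2.75 ± 0.09 with the combination. Retnla, a gene of alternative activation tied to STAT6 and Klf4, rose with IL-4/IL-13 (5.56 ± 0.19) and was at -0.19 (adjusted p = 0.425) with LPS/IL-4/IL-13, while Arg1 was higher with the combination than with IL-4/IL-13 by 2.03 ± 0.12. Pparg fell with IFN-gamma/LPS (-1.82 ± 0.08) and LPS/IL-4/IL-13 (-1.14 ± 0.08). Ccl5 rose with both LPS treatments (3.53 ± 0.06 and 3.47 ± 0.06), where Klf13 was lower. Nos3 did not pass in any comparison with untreated cells.

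**Figure D5:**
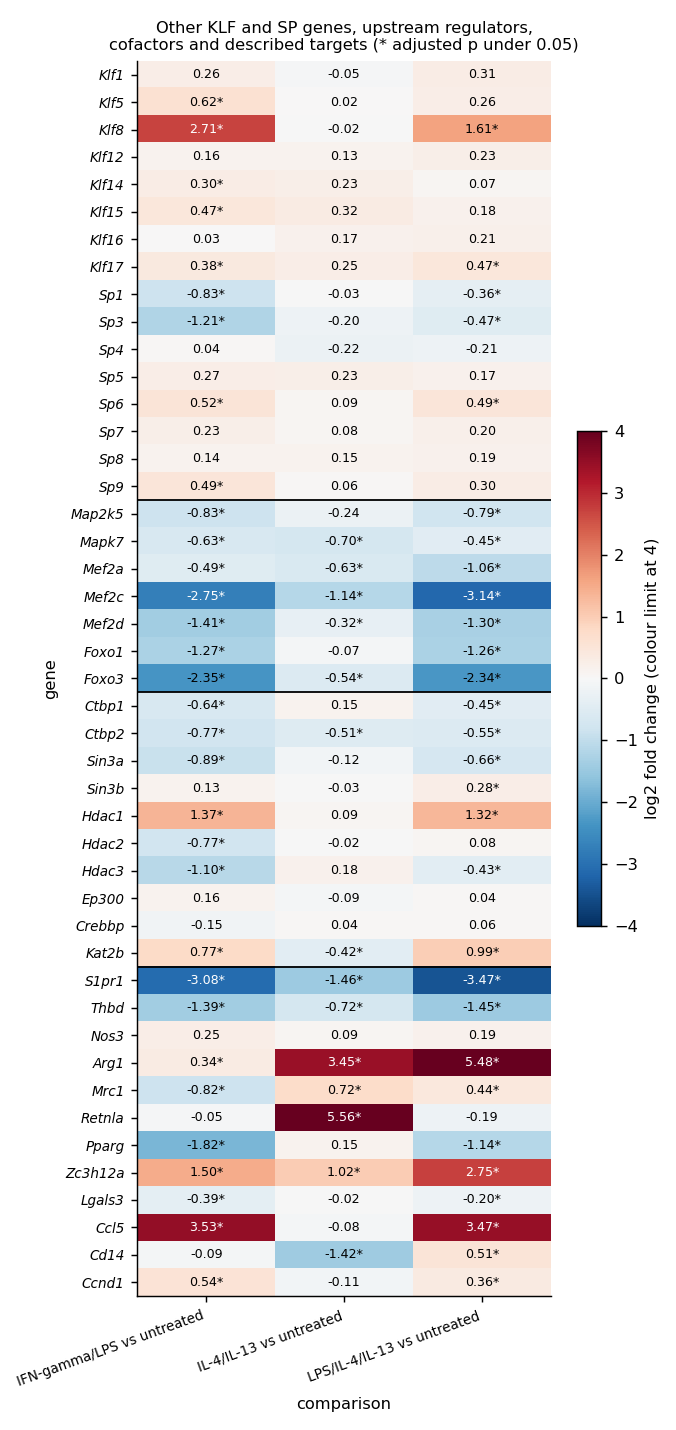
Log2 fold changes against untreated cells (colour and number, with an asterisk where limma's adjusted p was under 0.05) of the measured other KLF and SP genes, upstream regulators, cofactors and described targets, in blocks divided by lines. The upstream block is negative throughout, with no asterisk for Map2k5 and Foxo1 with IL-4/IL-13. Klf8 stands out among the KLF and SP genes with 2.71 and 1.61 in the LPS groups, and S1pr1 is negative in all 3 columns.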

How the data were processed

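The authors deposited a table of log2 values for 35556 probe sets on 8 arrays of total RNA. That they are log2 values follows from their range, 1.46 to 13.71. The labels name a mas5 signal, and neither background correction nor normalization is stated in the sources used here. The values were used as deposited, without detection calls, so the number of arrays limits the precision. GEO's platform annotation gave 1 symbol to 21789 probe sets, several to 1621 and none to 12146. The table named 19938 genes. For the 999 with several probe sets, the one with the highest mean was used. Of the probe sets, 21698 had an Entrez ID in RefSeq's gene table (GRCm38.p6), and 0 symbols needed an update.

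A model with 4 group means was fitted to all 8 arrays with limma 3.58.1 in R 4.3.3 (lmFit, then eBayes with trend; degrees of freedom 4 residual, 7.55 prior), and 6 comparisons were made, each adjusted by Benjamini-Hochberg over 19938 genes. Intervals are at 95%. The code was tested on simulated data. All 9 members were described. From each other list up to 6 called genes with the largest changes against untreated cells and up to 3 that never passed were named, and for a member changed by at least 1 log2 unit the 3 nearest genes; predicted, RIKEN and small RNA names were left out of these. Of 116 listed genes, 108 were measured. The members and lists were chosen with earlier results of these data known. As alternatives, arrays were centred on the median or quantile-normalized, the dimmest 40% of genes dropped, other probe sets or all of them used, eBayes run without trend or with robust settings, the other groups or each array left out, and the replicate number used as a block. The result of 1 further promoter motif is not reported here.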

Additional observations from a re-analysis of the deposited data

How the results depend on the processing

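Of 54 comparisons of the 9 Klf genes, 41 passed, and 31 of these passed under every alternative, while 9 of the others never passed. Over 972 values of a gene in a comparison under an alternative, 921 stayed on their side of the threshold, 42 lost a call and 9 gained one. A called direction turned in 0, and among those that stayed 6 changed sign with no call either way. Some of this steadiness was fixed in advance. Each member had 1 probe set, so a change of probe set left its values as they were. Leaving out an array of a group not compared left the change itself as it was. The count of called members, with each array left out in turn, ran against untreated cells from 6 to 7 with IFN-gamma/LPS, from 4 to 5 with IL-4/IL-13 and from 7 to 8 with the combination. Between treatments it ran from 3 to 6 for the combination and IFN-gamma/LPS, from 6 to 8 for the combination and IL-4/IL-13, and from 7 to 8 for IFN-gamma/LPS and IL-4/IL-13. In these ranges only the arrays of the 2 groups compared were left out, not those of the other groups. Where a group was left with 1 array, that array was assumed to vary like the other groups. The count for the combination and IFN-gamma/LPS was 5, and 3 when the fit held those 4 arrays alone, which is fewer samples. In that fit the count over all genes was 2603 instead of 3926. For IL-4/IL-13 against untreated cells it was 4020, and 2063 without untreated array 1, 2380 without untreated array 2 and 2244 without IL-4/IL-13 array 2. The labels number the arrays 1 and 2 in each group, but the deviations of same-numbered arrays correlated between -0.358 and 0.217 over the 6 pairs of groups, so the numbers were not taken to pair the samples. With the replicate number as a block the counts of called members were 7, 6, 8, 6, 8 and 8, in the order above.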

Other observations

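Klf10 and Klf11 are known as TGF-beta-inducible genes. Of 10 measured genes of the TGF-beta pathway, 1 rose and 7 fell with IFN-gamma/LPS, by limma's adjusted p against untreated cells. With IL-4/IL-13, 4 fell, and with LPS/IL-4/IL-13, 2 rose and 5 fell. The shares of all genes called with these treatments were 51.9%, 20.2% and 45.6%. In that order of treatments the log2 changes of the receptor gene Tgfbr1 were -1.60 ± 0.11, -1.07 ± 0.11 and -1.67 ± 0.11. Those of the other receptor gene, Tgfbr2, were -1.95 ± 0.09, -0.64 ± 0.09 and -1.84 ± 0.09. Smad3, which carries the signal to the nucleus, changed by -2.33 ± 0.10, -1.29 ± 0.10 and -2.18 ± 0.10. Skil, an inhibitor of SMAD signalling, rose with both LPS treatments and fell with IL-4/IL-13 (1.92 ± 0.10, -1.14 ± 0.10 and 1.88 ± 0.10). The ligand genes Tgfb1 and Tgfb3 fell with IFN-gamma/LPS (-0.88 ± 0.07 and -0.84 ± 0.11) and with LPS/IL-4/IL-13 (-0.40 ± 0.07 and -0.66 ± 0.11).

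Klf9 is known as a glucocorticoid-induced gene. Of 7 measured genes of the glucocorticoid response, 2 rose and 4 fell with IFN-gamma/LPS, 5 fell with IL-4/IL-13, and 2 rose and 4 fell with LPS/IL-4/IL-13. The shares of all genes called were again 51.9%, 20.2% and 45.6%. Tsc22d3 (the leucine zipper protein GILZ) changed by -2.15 ± 0.15, -0.48 ± 0.15 and -1.25 ± 0.15, Sgk1 by -0.67 ± 0.10, -1.49 ± 0.10 and -1.52 ± 0.10 and Zbtb16 by -1.26 ± 0.11, -1.13 ± 0.11 and -1.48 ± 0.11, and all 3 fell with every treatment. The phosphatase gene Dusp1 rose with both LPS treatments and fell with IL-4/IL-13 (2.10 ± 0.08, -1.11 ± 0.08 and 2.26 ± 0.08), as did the receptor gene Nr3c1 (0.49 ± 0.10, -0.50 ± 0.10 and 0.93 ± 0.10). Per1 fell with both LPS treatments (-0.85 ± 0.12 and -0.63 ± 0.12) and was at 0.14 with IL-4/IL-13, not passing (adjusted p = 0.432). Fkbp5 did not pass in any comparison with untreated cells, its change with IL-4/IL-13 being 0.28 (adjusted p = 0.134). Klf9 itself rose with IL-4/IL-13 (0.94) and fell with IFN-gamma/LPS (-0.49) and LPS/IL-4/IL-13 (-0.53), both falls being lost after quantile normalization. The cause of these changes was not tested, and no group received TGF-beta or a glucocorticoid as a treatment per the labels.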
